A study of Bos taurus with 2 samples.

Results

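The 10 genes of acrosomal and egg-binding proteins were described in the testis of crossbred and Zebu bulls: ACR, ACRBP, ACRV1, SPACA1, SPACA3, ZPBP, ZPBP2, SPAM1, IZUMO1 and CRISP2. They were taken by name, as all non-control probes whose gene name on the array was one of these symbols. This gave 19 probes of 60 bases on 20 spots, out of 51279 probes, 61644 spots and 32428 gene names in use. The crossbred group was Holstein Friesian crossbreds with 50 to 75% exotic inheritance, and the Zebu group was Tharparkar, the indigenous breed. All bulls were males aged 24 months, 1 testis was removed from each, and the study describes no other treatment that separated the groups. RNA from the testes of 3 bulls was pooled in equal quantity for each group and hybridised to 1 single-colour Agilent array. With 1 array per group there was no replicate check, the spread between bulls within a breed was not measured, and no test or p-value could be given. Each value below compares those pools, and each difference is the crossbred minus the Zebu value on the log2 scale.

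The acrosome is a large secretory granule that round spermatids build from Golgi vesicles and spread over the front of the nucleus. Its matrix holds proteases and their binding partners, and its membranes carry proteins that meet the cumulus, the zona pellucida and the egg membrane. Most of these genes are transcribed in spermatids after meiosis, so in whole testis their signal depends both on how many such cells the tissue holds and on how much RNA each cell makes. In these bulk samples fewer cells of a type and less RNA per cell cannot be told apart.

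Values are processed signals after subtraction of the 75th percentile of their array on the log2 scale, so 0 is the 75th percentile. That percentile was a signal of 1042 on the crossbred and 1092 on the Zebu array. At least 72.0% of the spots of either array were well above background, a call that the scanner software makes for each spot, and 24758 gene names were so on at least 1 array. Over these the median difference was -0.05. Spots of the same probe had an SD of 0.29 on the crossbred and 0.18 on the Zebu array (5962 probes). Combined as independent errors, these gave an SD of 0.34 for a difference, a measure of printing and scanning error only. A difference of 1.5 or more, which is 2.83-fold, was counted as higher, and -1.5 or less as lower. Differences were taken between the arrays for 1 probe at a time. A probe's brightness depends on its sequence as well as on the RNA, so brightness served only to choose probes and a matched background, and summed signals are set only against the same sum on the other array.

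The 2 arrays both placed 18 of the 19 probes well above background, and these 18 all had a higher value on the crossbred array. Of all 19, 6 were higher by 1.5 or more, against 6.14% of all probes, and 0 were lower, against 2.99% of all probes. Where each gene was read from its brightest probe, all 10 genes had a difference above 0, against 46.8% of all detected gene names. The differences ran from 0.55 for ZPBP to 1.85 for IZUMO1, with a median of 1.29. By the same reading 3 of the 10 genes were higher by 1.5 or more, namely IZUMO1, ACRV1 and SPAM1, against 7.24% of gene names. The count of lower genes was 0, against 2.98%. Among the 9021 gene names at least as bright as the dimmest of the 10, 6.96% were higher, 48.4% had a difference above 0, and the median was -0.03.

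**Figure D1:**
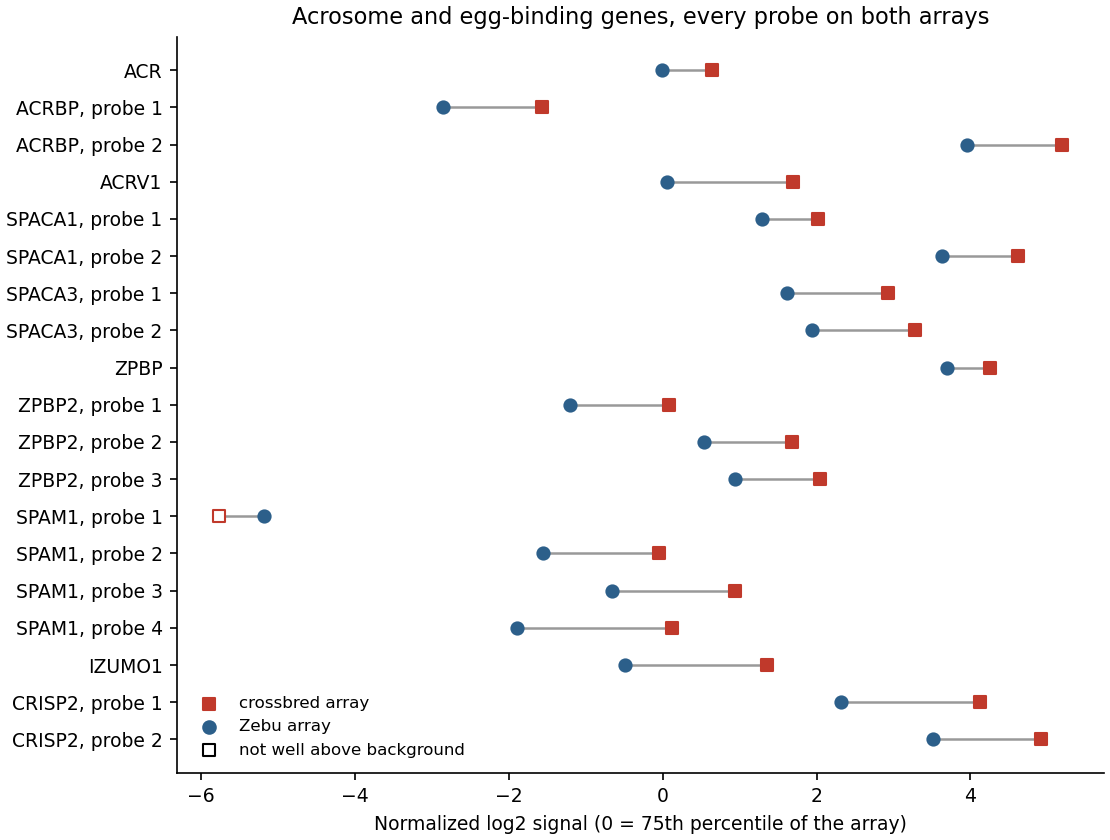
Normalized log2 signal (horizontal axis, 0 is the 75th percentile of the array) of all 19 probes on the crossbred array (red squares) and the Zebu array (blue circles), with probes numbered from 5′ to 3′ along each gene. The red square lies to the right of the blue circle for every probe but SPAM1 probe 1, where the open square was not well above background.

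ACR encodes acrosin, a trypsin-like serine protease that is stored in the acrosome as the inactive proacrosin. Its only probe read 0.64 on the crossbred and -0.01 on the Zebu array, processed signals of 1629 and 1085, a difference of 0.65 or 1.57-fold. It lies on an unplaced scaffold of the array's genome build, HGSC Btau_3.1. ACRBP encodes the proacrosin binding protein, which holds proacrosin in the matrix and takes part in its maturation. Its brighter probe, at chr5:10777987-10778046 on the plus strand, read 5.18 and 3.95, signals of 37894 and 16907. The difference was 1.23, or 2.35-fold. The other ACRBP probe 5778 bases upstream, at chr5:10772149-10772208, had signals of 350 and 151 and gave nearly the same difference, 1.28. Within this pair of partners the binding protein thus differed more between the arrays than the protease, but neither reached 1.5 and the gap was not tested.

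ACRV1 encodes SP-10, a protein of the acrosomal matrix. Its only probe, on the minus strand at chr29:30608281-30608340, is shown because it was 1 of the 3 genes past the threshold:
ACRV1: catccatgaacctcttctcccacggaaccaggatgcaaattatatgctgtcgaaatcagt
It read 1.69 on the crossbred and 0.06 on the Zebu array, signals of 3372 and 1137. The difference of 1.64, or 3.11-fold, was larger than that of 94.4% of detected gene names. ACRV1 is in the list of acrosomal vesicle genes that the study drew from these same arrays, so its place there is not independent evidence.

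SPACA1 encodes a membrane protein of the acrosome that is needed for its shape. The brighter of its probes, at chr9:63677350-63677409 on the minus strand, was the only probe of the 10 genes with more than 1 spot. Its spots read 4.59 and 4.64 on the crossbred array and 3.65 and 3.61 on the Zebu array. These spots repeat 1 probe on 1 pooled array per group and are not replicates of the breeds. Their differences of 0.94 and 1.03 averaged 0.98, or 1.98-fold. The other SPACA1 probe ends 57 bases upstream of it, and its match spans 1787 bases of the genome, far more than its own 60, which leaves room for an intron within it. That probe gave 2.01 and 1.28, a difference of 0.73.

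SPACA3 encodes a lysozyme-like protein of the acrosomal matrix that has been linked to binding of the egg membrane. Its brighter probe, at chr19:17016505-17016564 on the minus strand, read 3.28 and 1.94, signals of 10134 and 4191. The difference was 1.34, or 2.53-fold. The other, 2423 bases away in the 5′ direction, read 2.93 and 1.62, a difference of 1.31. The probes of SPACA3 therefore stood 0.03 apart in their differences, well within the 0.34 between spots.

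ZPBP and ZPBP2 encode paralogous proteins that bind the zona pellucida, the coat of the egg, and take part in packing the acrosome. They had different differences. The only ZPBP probe, at chr4:5945004-5945063 on the plus strand, read 4.25 and 3.70, signals of 19871 and 14201. Its difference of 0.55, or 1.47-fold, was the smallest among the 10 genes. ZPBP2 had 3 probes, all with a larger difference than ZPBP. Its probe 1, at chr19:41490659-41490718, read 0.09 and -1.21, a difference of 1.29. Probes 2 and 3, at chr19:41491520-41491579 and chr19:41491554-41491613 on the plus strand, overlap, so they are not separate looks at the transcript. They are shown with the 26 shared bases in capitals:
ZPBP2 probe 2: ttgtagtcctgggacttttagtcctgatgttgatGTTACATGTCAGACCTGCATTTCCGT
ZPBP2 probe 3: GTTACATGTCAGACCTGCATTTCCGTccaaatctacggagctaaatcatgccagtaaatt
Probe 2 read 1.68 and 0.54, a difference of 1.14, and the brightest, probe 3, read 2.05 and 0.94, a difference of 1.10 or 2.15-fold. The differences of ZPBP, at 0.55, and ZPBP2, at 1.10 by its brightest probe, each carry spot error. Without replicate arrays the gap between them was not tested.

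SPAM1 encodes PH-20, a hyaluronidase anchored in the sperm membrane that loosens the hyaluronan matrix of the cumulus. It had 4 probes along chr4, all on the plus strand, and they are printed because they did not give the same answer:
SPAM1 probe 1: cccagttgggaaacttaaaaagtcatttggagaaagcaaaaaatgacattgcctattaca
SPAM1 probe 2: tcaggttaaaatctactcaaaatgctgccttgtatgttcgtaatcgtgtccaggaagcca
SPAM1 probe 3: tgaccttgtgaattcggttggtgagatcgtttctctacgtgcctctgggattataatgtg
SPAM1 probe 4: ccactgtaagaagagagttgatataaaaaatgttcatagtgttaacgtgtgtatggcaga
Probe 1, at chr4:91245992-91246051, had signals of 19.2 and 30.1, and the crossbred one was not well above background. With that value set to its bound the probe was 1.34-fold lower there, a difference of -0.42. This is smaller in size than the scanner software's error of 0.46 for the difference. It was the only one of the 19 probes below 0. Its spot, in row 57 and column 41 of the array, lay in a dark patch of the crossbred array. The 18 nearest spots had a median difference of -0.99, and the part of the patch in this value was not tested.

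The other 3 SPAM1 probes all passed 1.5. Probe 2, at chr4:91246448-91246507, lies 396 bases downstream of probe 1 and read -0.05 and -1.55, which is 2.84-fold and only just past the threshold. Probe 3, at chr4:91247079-91247138, was the brightest, with signals of 2001 and 693. It read 0.94 and -0.66, a difference of 1.60 or 3.03-fold. Probe 4, at chr4:91252839-91252898, read 0.12 and -1.89, and its difference of 2.01, or 4.02-fold, was the largest of the 19 probes. None of these 3 spots lay in a patch, and their nearest spots had medians of 0.07, 0.14 and 0.18.

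IZUMO1 encodes the sperm membrane protein that binds JUNO on the egg and is needed for fusion. Its only probe matches the minus strand at chr18:55195259-55195659, where its 60 bases are spread over 401 bases of the genome:
IZUMO1: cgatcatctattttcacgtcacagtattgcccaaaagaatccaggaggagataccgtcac
It read 1.36 on the crossbred and -0.49 on the Zebu array, signals of 2675 and 778. The difference of 1.85, or 3.60-fold, was the largest of the 10 genes by brightest probe and exceeded that of 95.9% of detected gene names. The spot, in row 158 and column 48, lay just outside a marked bright patch that starts at column 50. Its 18 nearest spots had a median difference of -0.28, below 0.

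CRISP2 encodes a cysteine-rich secretory protein found in the acrosome and the sperm tail. Its probes, both on the minus strand of chr23, fell on either side of the threshold. Probe 1, at chr23:22866291-22866350, is shown since it passed:
CRISP2 probe 1: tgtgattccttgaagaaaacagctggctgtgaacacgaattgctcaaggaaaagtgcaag
It read 4.12 and 2.32, signals of 18144 and 5464, a difference of 1.80 or 3.48-fold. The brightest probe, 345 bases downstream at chr23:22865886-22865945, read 4.92 and 3.51, signals of 31565 and 12436. Its difference of 1.41, or 2.66-fold, kept CRISP2 out of the count by brightest probe, so that CRISP2 at 1.41 stood just below the threshold and SPAM1 at 1.60 just above it. The probes' differences were 0.39 apart. The SD of 0.34 between spots is for 1 difference, and a gap between probes carries the error of both. The study also measured CRISP2 by quantitative PCR in a larger set of bulls of both groups. It reported the same trend as on the array but no significant difference.

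**Figure D2:**
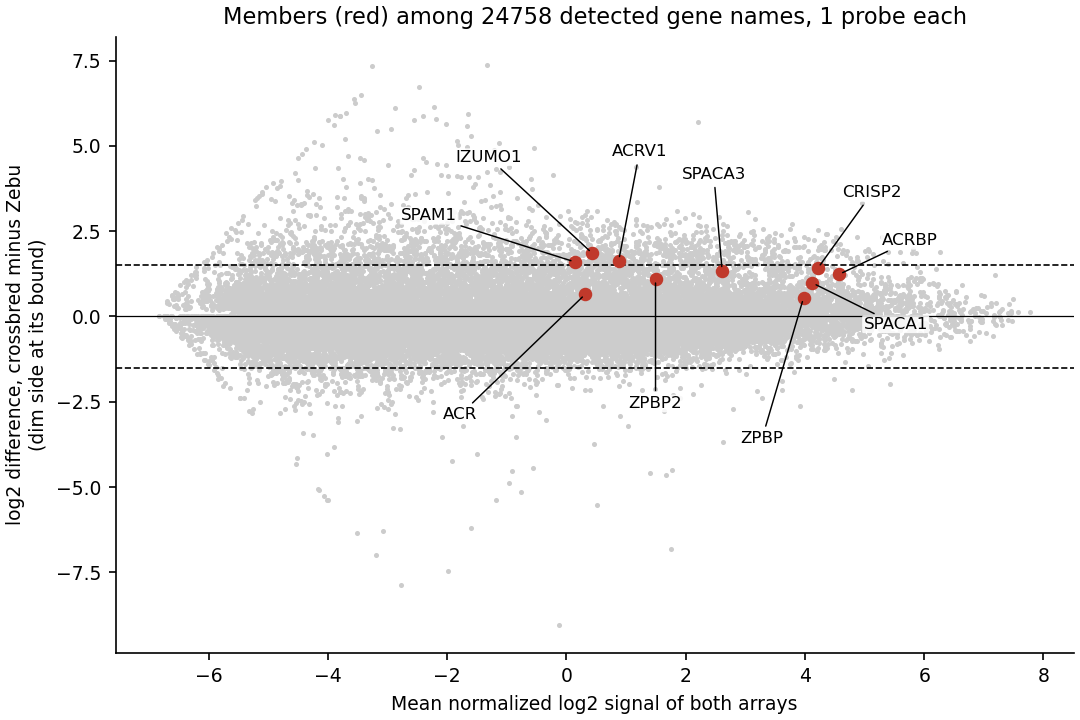
Difference, crossbred minus Zebu (vertical axis, log2, a value not well above background set to its bound), against the mean normalized log2 signal of both arrays (horizontal axis) for 24758 detected gene names, 1 probe each (grey), with the 10 genes in red and dashed lines at 1.5 and -1.5. All 10 lie above 0, from 0.55 for ZPBP to 1.85 for IZUMO1, and 3 lie above the upper line.

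The genes with several probes allowed a comparison of different stretches of the same transcript. Besides the brightest probes there were 9 others, of which 8 had a difference above 0 and 3 were higher by 1.5 or more. Pairs of probes in ACRBP and SPACA3 stood 0.05 and 0.03 apart. The pair in SPACA1 stood 0.25 apart, and the largest gap within ZPBP2 was 0.19. In SPAM1, with probe 1 left aside, gaps ran from 0.09 to 0.50. The 19 probes held between 35 and 55% G and C. No strand-specific or exon-specific reading was made, since the array annotation used here gives positions without marking exons or UTRs.

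**Figure D3:**
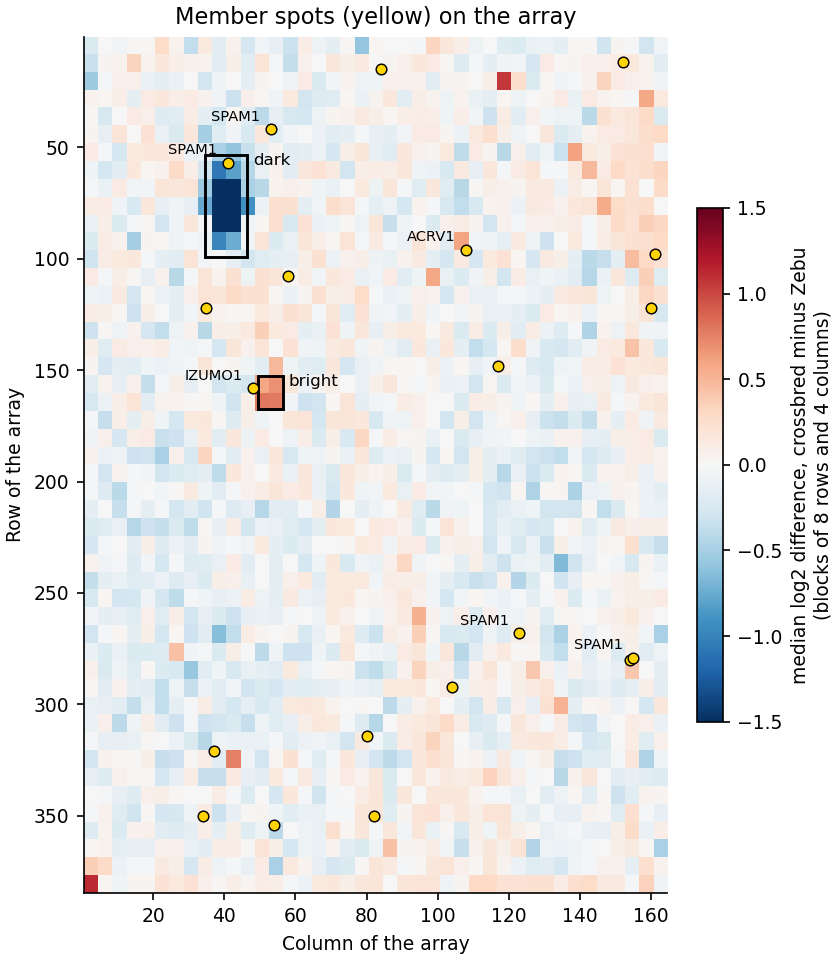
Place of the 20 spots (yellow circles) on the array, by row and column, over the median log2 difference of blocks of 8 rows and 4 columns (blue below 0, red above 0, crossbred minus Zebu), with the dark patch (rows 54 to 99, columns 35 to 46) and the bright patch (columns 50 to 56) outlined. The spot of SPAM1 probe 1 lies in the dark patch, and the other 19 lie outside both.

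The spots lay scattered over the array, and 1 of 20 was in a patch. For the other 18 probes the 18 nearest spots had median differences between -0.52 and 0.43, both below the smallest difference of the genes themselves. Subtraction of these medians, a step chosen after the data were seen, left all 10 genes above 0. It moved SPAM1 to 1.42, below the threshold, CRISP2 to 0.97, and ZPBP2 to 1.59, above it. Correction of the background by normexp also put SPAM1 below the threshold, at 1.45, and left ACRV1 at 1.55 and IZUMO1 at 1.72. Under normexp 4.27% of gene names were higher and 0.699% lower. The mean of all SPAM1 probes, the dim one included, gave 1.17.

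**Figure D4:**
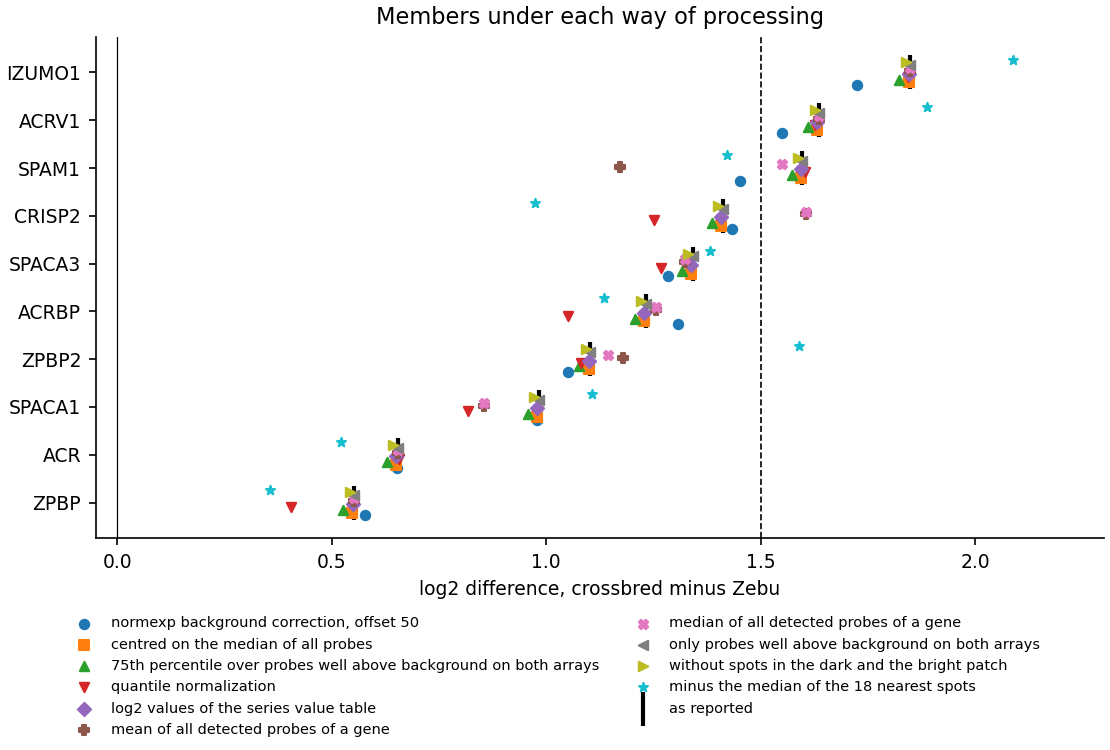
Log2 difference, crossbred minus Zebu (horizontal axis), of each of the 10 genes as reported (black bar) and under 10 other ways of processing (coloured marks), with a dashed line at 1.5. IZUMO1 and ACRV1 stay above the line in every setting drawn, SPAM1 falls below it in 3, and no mark lies at or below 0.

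Other genes of the acrosome and of egg binding were read from lists made by function, with earlier results of these data known. SPACA4, CYLC1, CYLC2, IQCF1, PDILT, PLCZ1 and WBP2NL are in the study's lists of upregulated genes from these same arrays. The counts of higher genes in these lists are therefore not independent evidence. Of 59 listed genes 53 were on the array by that name and 51 were detected. Of the 51, 16 were higher by 1.5 or more, 2 were lower, and 42 had a difference above 0, against 7.24%, 2.98% and 46.8% of all detected gene names, with a median of 1.23. The same shares over all gene names stand beside the counts of each list that follows. Among 14 detected genes listed as other acrosomal matrix and membrane proteins, 7 were higher and 0 lower, with a median of 1.49. They included PRSS21, a membrane-anchored serine protease (1.73 and -0.20, difference 1.93), SPACA7, a matrix protein (1.74), SPACA5, a lysozyme-like relative of SPACA3 (1.65), and CYLC1 (1.61). CYLC2, named after its value was seen, gave 1.51 and also counts among the 7. CYLC1 and CYLC2 encode cylicins of the sperm head cytoskeleton and not proteins of the matrix or membrane. SPACA4, a membrane protein of the sperm head, read 0.47 and -1.09, a difference of 1.56. The smallest differences in this list were -0.48 for CD46, a complement regulator of the inner acrosomal membrane, and 0.68 for PCSK4, a proprotein convertase. The sign for CD46 rests on its brightest probe, since the median over its 6 detected probes was 1.06 and 1 of them was higher by 1.5 or more.

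Both inhibitors of acrosin stayed below the threshold. SPINK2 read 5.02 and 4.06, a difference of 0.96, and SERPINA5 read 5.40 and 5.53, a difference of -0.13. Set beside acrosin itself, at 0.65, they lay on either side of it.

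Among 12 genes of acrosome biogenesis, 2 were higher, 1 was lower and 8 had a difference above 0, with a median of 0.69. The actin-like proteins ACTL9 (3.99 and 1.96, difference 2.03) and ACTL7A (1.61) were higher. PICK1 and GOPC, which act in the traffic of Golgi vesicles, gave 1.47 and 1.24. HOOK1 and VPS54 gave -0.09 and -0.10 by brightest probe, but the medians over the 4 probes of each were 1.35 and -0.34, so that the sign for HOOK1 turned. The lowest value outside the dark patch was -0.58, for CSNK2A2, named after its value was seen, a protein kinase subunit with a single probe. The lower gene, named here after its value was seen, was DPY19L2, which anchors the acrosome to the nucleus. Its crossbred signal was not well above background and its bound was -5.39, but its spot lay in the dark patch, where its 18 nearest spots had a median of -5.31. The study lists DPY19L2 among its most downregulated transcripts from these same arrays, so that listing is not independent evidence. By quantitative PCR in a larger set of bulls the study reported the opposite trend for DPY19L2, without a significant difference.

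Among 8 detected genes of the acrosome reaction, 2 were higher and 1 was lower, 5 had a difference above 0, and the median was 0.25. Of the 8, 6 were well above background on both arrays. The median depended on the processing. It was -0.08 with the mean or the median of all probes, and 0.89 with only probes well above background on both arrays. CATSPER1, a pore subunit of the sperm calcium channel, read 1.83 and -0.06, a difference of 1.90, and IQCF1 gave 1.61. PLCD4, a phospholipase C, gave 1.38. STX1A, a SNARE protein of membrane fusion, read -1.17 and 0.48, a difference of -1.65, but the median over its 2 detected probes was -0.95, above -1.5. NAPA and NSF, which recycle SNARE proteins in all cells, gave 0.09 and 0.40, and the median over the 2 probes of NSF was -0.30.

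Among 15 detected genes listed as sperm surface proteins of egg binding and fusion, 5 were higher, 0 were lower and all 15 had a difference above 0, with a median of 1.25. IZUMO2, a paralog of IZUMO1, read 3.16 and 0.77, a difference of 2.39. WBP2NL and PLCZ1, sperm proteins studied as activators of the egg, gave 2.22 and 1.90, and PDILT, a testis chaperone, read 1.60 and -0.40. These 3 of the 5 higher genes are not surface proteins themselves. IZUMO4 and TEX101 had the smallest differences, 0.36 and 0.39. Of the relatives of CRISP2, CRISP3 read 0.41 and -1.05, a difference of 1.46, while CRISP1, an epididymal protein, was not well above background on either array.

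**Figure D5:**
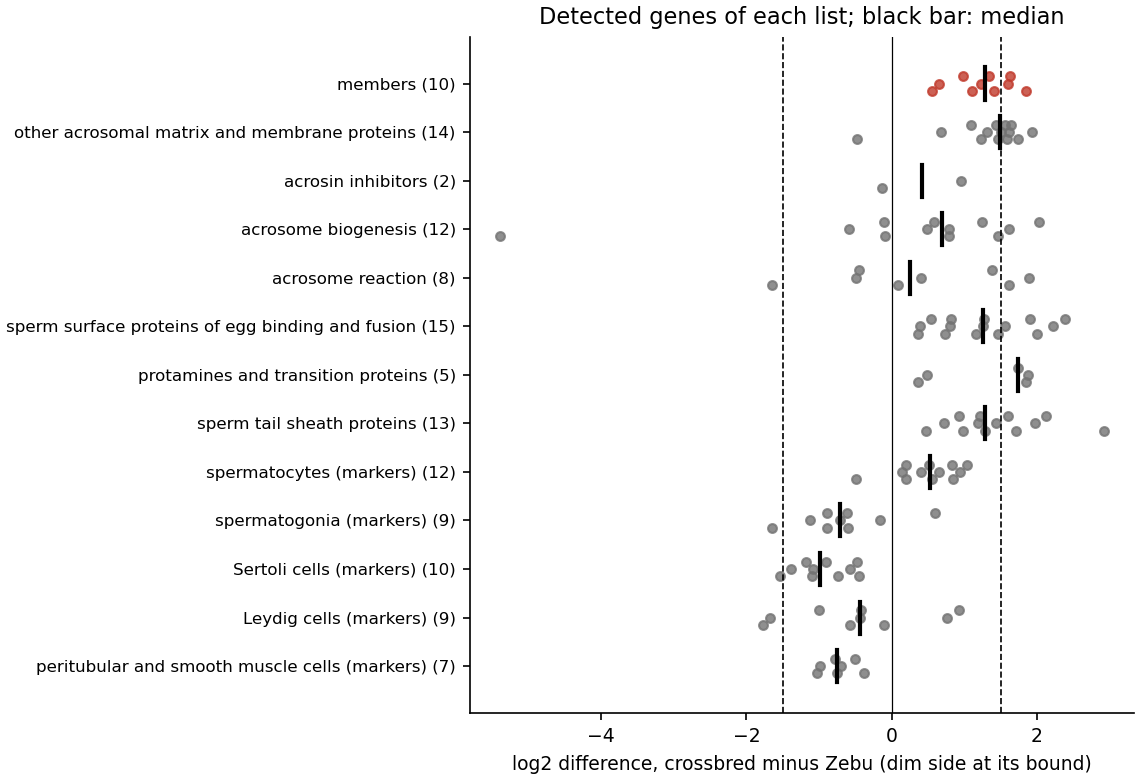
Log2 difference, crossbred minus Zebu (horizontal axis, a value not well above background set to its bound), of each detected gene of the 10 genes (red) and of the context, comparison and marker lists (grey), with the number of genes in brackets, a black bar at the median and dashed lines at 1.5 and -1.5. The 10 genes have a median of 1.29, as do the 13 genes listed as sperm tail sheath proteins. Spermatogonia, Sertoli, Leydig and peritubular markers have medians below 0.

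Other genes of late spermatids were read in the same way. PRM3, TNP2, ODF1, SPEM1, OAZ3, AKAP4 and ROPN1 are also in the study's lists of upregulated genes, so these counts are not independent evidence either. The 5 protamine and transition protein genes had a median of 1.74, with PRM2, PRM3 and TNP2 at 1.88, 1.86 and 1.74 and PRM1 and TNP1 at 0.36 and 0.49. The value of TNP1 depended on the probe, with a median of 1.47 over its 3 probes, 1 of which was higher by 1.5 or more. The 13 genes listed as sperm tail sheath proteins had a median of 1.29, and 5 of them were higher and 0 lower. They ran from ROPN1L at 0.47 and CABYR at 0.72 to AKAP4 at 1.71, OAZ3 at 1.98, ODF1 at 2.13 and SPEM1 at 2.92. Of the higher genes, SPEM1, a spermatid maturation gene, and OAZ3, an ornithine decarboxylase antizyme, are not sheath proteins themselves. No test of a difference between these lists could be made. The study also measured SPEM1, TNP1 and TNP2 by quantitative PCR in a larger set of bulls. For SPEM1 it reported a trend opposite to the array. Its results call that PCR difference significantly up in crossbred bulls, but its discussion calls it significantly down. For TNP1 and TNP2 it reported the same trend as on the array, with significantly higher values in crossbred bulls.

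Markers of the other cells of the testis were read beside the 10 genes. Lower by 1.5 or more were 0 of 12 spermatocyte, 1 of 9 spermatogonia and 1 of 10 Sertoli cell markers. For Leydig cells it was 2 of 9 and for peritubular cells 0 of 7, against 2.98% of all gene names. In each of these lists 0 were higher, against 7.24%. The summed normalized signal of the 10 genes was 133 on the crossbred and 61.4 on the Zebu array, in units of the 75th percentile. Over 12 spermatocyte markers it was 119 and 80.7, with a median difference of 0.53 and 11 of 12 above 0. Over 9 detected spermatogonia markers it was 36.4 and 54.5, with a median of -0.71 and 1 of 9 above 0. Over 10 Sertoli cell markers it was 174 and 273, with a median of -0.99 and 0 of 10 above 0. Over 9 Leydig cell markers it was 106 and 154, with a median of -0.44 and 2 of 9 above 0. Over 7 peritubular and smooth muscle markers it was 46.5 and 79.6, with a median of -0.76 and 0 of 7 above 0. The brightest gene weighs most in such a sum. These were CLU (6.80 and 7.28) for Sertoli and INSL3 (6.43 and 6.87) for Leydig cells, both named after their values were seen. Endothelial and macrophage markers had medians of -0.15 and 0.06. Of the endothelial markers 0 of 7 passed the threshold. Of 8 detected macrophage markers 1 was higher, AIF1 at 1.95, named after its value was seen, and 0 were lower. The 2 detected red blood cell markers went opposite ways, HBA at -2.15 and HBM at 0.33, both named after their values were seen. The part of these values in the values of the 10 genes was not tested, and with 1 array per group cell makeup and breed cannot be told apart.

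Epididymal RNA was looked for because some CRISP proteins are made there. CRISP1 was not well above background on either array, while 3 of the 5 listed epididymal genes on the array were detected. By brightest probe, and named after their values were seen, they gave 3.22 for ELSPBP1, 1.99 for SPAG11B and -0.51 for SPINK5. The median over the 2 probes of SPAG11B was 1.37, below the threshold. Their part in the CRISP2 value was not tested.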

How the data were processed

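Testis RNA of crossbred and Zebu bulls was measured on 1 Agilent single-colour array per group, each a pool of 3 bulls. The authors labelled it with Cy3 from oligo dT and extracted spot intensities with Feature Extraction 11.5; the deposited value table holds log2 values shifted by the 75th percentile (medians -3.00 and -3.01, r with the scanner values of at least 0.999). Here the deposited processed intensity was taken to log2 and each array's 75th percentile over non-control spots was subtracted, after 13 outlier spots were left out; 0 spots were saturated. Spots of a probe were averaged, and a gene was read from its brightest probe. A value not well above background was replaced by a bound. Named genes were all members, per list up to 4 with the largest and 2 with the smallest size of difference (sign ignored, well above background on both arrays), and SPACA4, SPINK2, SERPINA5, CRISP1 and CRISP3 as relatives or inhibitors of members; the text says where others were added after their values were seen. Genes were matched by the array's names; probe positions are those of HGSC Btau_3.1. The members and lists were chosen with earlier results of these data known. No test was possible with 1 array per group. In all, 12 other settings were tried, 11 of them planned. Python 3.11.15, numpy 2.4.6, pandas 2.3.3 and limma 3.58.1 were used, and the calculations were tested on simulated data.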

Additional observations from a re-analysis of the deposited data

How the results depend on the processing

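All 10 genes stayed above 0 in each of the 10 settings that change values, between 0.36 and 2.09, and their median ran from 1.17 (quantile normalization) to 1.30. IZUMO1 (1.72 to 2.09) and ACRV1 (1.55 to 1.89) passed 1.5 in all of them. At a threshold of 1 the number of members higher was 7, against 12.9% of gene names, and at 2 it was 0. Of the 51 context genes, 28 were higher at 1 and 3 at 2, and the number lower was 3 at 1 and 1 at 2. It was also 1, against 2 as reported, with normexp, with the mean or the median of all probes, with only probes well above background on both arrays, without the patches, and after subtraction of the 18 nearest spots, which was added after the data were seen. The context median was 0.88 with normexp. CRISP2 rose past the threshold, to 1.61, with the mean or median of its probes. The causes were not tested. A limit is the 1 pooled array per group: scanner error and the spread between spots say nothing of the spread between bulls. No paired analysis was possible because the groups share fewer than 2 replicate numbers.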

Other observations

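The genes next to the 10 members on the chromosome were read as a description of their surroundings. The nearest protein-coding gene on each side that the array also names, taken by gene order in the RefSeq annotation of ARS-UCD2.0, gave 20 neighbours, of which 17 were detected. Their median difference was 0.25, with 9 above 0, 1 higher by 1.5 or more and 0 lower, near the shares of 46.8%, 7.24% and 2.98% over all gene names. The 1 higher gene, named after its value was seen, was ABCA13 near ZPBP, at 2.24 (0.11 and -2.13). CRISP3, which lies next to CRISP2, gave 1.46. For the 3 members past the threshold, the neighbours of IZUMO1 were RASIP1 at 0.25 and FUT1 at -0.07, those of ACRV1 were CHEK1 at -0.56 and SSLP1 at 0.38, and those of SPAM1 were WASL at -0.19 and LOC527125 at 0.68.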
